A study of Mus musculus with 2 samples.

Results

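Long intergenic noncoding RNAs (lincRNAs) are spliced or unspliced transcripts that carry no long reading frame and lie mostly outside protein-coding genes. This account covers the 32 of them that were counted well in G1E-ER4 cells, out of 2777 lincRNA genes and 43346 genes in the deposited tables. A gene entered when the GENCODE M21 annotation typed it as lincRNA and its expected count, an estimate of the fragments that came from the gene, was at least 100 in each of 2 libraries. Gm26917 and Gm42418 met that limit too and were left out by name, so that 34 genes passed and 32 stayed. The members were selected on their measured counts, and their levels are therefore given as a description. On the low side of the limit were C030034I22Rik with 161 and 92 counts, Gm5914 with 173 and 88, and 4632404H12Rik with 82 and 84. On the high side were Gm16001 with 217 and 105 counts, 2010320M18Rik with 254 and 120, and Ino80dos with 180 and 127.

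G1E-ER4 is an immortalized mouse line, male and of postnatal stage per the labels, that grows as immature erythroid cells. Its parent line lacks a working Gata1 gene, and G1E-ER4 is a clone that carries GATA1, the master transcription factor of red cells, fused to the hormone-binding part of the estrogen receptor. Estradiol releases the fusion protein to act and the cells begin to mature. All the libraries were polyA-selected RNA of cells kept in 10 nM 17beta-estradiol for 7 hours, numbered as biological replicates 1 and 2, and they formed 1 group. No untreated cells are analysed here, so nothing below says how estradiol acts on a lincRNA. The labels tie the 2 libraries to the same biological sample record, and their spread may be technical. With 2 libraries, an exact two-sided sign-flip test could not go below p = 0.5.

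Replicate 1 held 59610969 expected counts and replicate 2 held 44689405. All 8 erythroid markers on the list used here reached 1 TPM in both libraries, where TPM is the deposited level per length, with the same sum in each library. Among them, the erythroid transcription factor Klf1 stood at 984 and 1394 TPM and the erythropoietin receptor Epor at 184 and 153 TPM. Of the markers of other blood cells, 0 of 3 lymphoid, 2 of 4 myeloid, 2 of 3 mast cell and 3 of 4 megakaryocyte genes reached 1 TPM in both. In bulk RNA such as this, few cells with much of an RNA and many cells with little of it cannot be told apart. The RNA of Gata1 itself stood at 1251 and 872 TPM, and these values do not separate an endogenous transcript from the fusion.

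LincRNAs work in several known ways. Some act as RNA, by binding proteins in the nucleus or cytoplasm; some are mainly carriers of a microRNA or small nucleolar RNA (snoRNA) that is cut out of them; and for others the act of transcription, or the DNA element it starts from, matters more than the product. Many are capped, spliced and given a polyA tail by the same machinery as messenger RNA, and such tails are what the libraries here were selected on. The signal for that tail is the word AATAAA, or the weaker ATTAAA, in the last bases before the end of the transcript.

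The annotated 3′ ends of 8 members that the results turn on show this signal and the cases without it. Each line below gives the last 50 bases of the leading transcript in GENCODE M21 (for Malat1, of its full-length transcript), 5′ to 3′, on GRCm38, and capitals mark AATAAA or ATTAAA.
Norad (2900097C17Rik), chr2:156388065-156388114, minus strand: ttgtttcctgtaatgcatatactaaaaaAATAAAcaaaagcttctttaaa
Mir142hg, chr11:87757221-87757270, plus strand: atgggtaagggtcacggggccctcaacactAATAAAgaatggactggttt
Snhg12, chr4:132310973-132311022, plus strand: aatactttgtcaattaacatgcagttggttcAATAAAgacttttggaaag
Snhg20, chr11:117078906-117078955, plus strand: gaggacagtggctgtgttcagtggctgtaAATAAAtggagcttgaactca
Malat1, chr19:5795690-5795739, minus strand: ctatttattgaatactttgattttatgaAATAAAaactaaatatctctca
Neat1, chr19:5842307-5842356, minus strand: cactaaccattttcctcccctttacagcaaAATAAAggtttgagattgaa
Lockd, chr6:134956749-134956798, plus strand: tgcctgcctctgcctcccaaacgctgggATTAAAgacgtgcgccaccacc
Gm14230, chr2:156837822-156837871, minus strand: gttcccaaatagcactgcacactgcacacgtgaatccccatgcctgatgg
AATAAA was present in the last 50 bases, on the transcript's own strand, of 19 of the 32 members (59.4%). The same held for 3933 of the 7860 coding genes that passed the same count limit and had a sequence. With ATTAAA counted as well, the numbers were 23 members (71.9%) and 4892 coding genes (62.2%). Among the 23 members whose leading transcript has the same length in M21 as in the deposited tables, 12 had AATAAA. In Norad the word began 22 bases before the end, in Snhg12 19 bases and in Neat1 20 bases. A match here is a description of the letters, and the ends themselves were not measured.

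The best known small RNA made from a member is the miR-142 pair, which sits in the host transcript Mir142hg and is known as a microRNA of blood cells. Its mature forms, from RefSeq on GRCm38.p6, are printed with the seed, bases 2 to 8, in capitals.
mmu-miR-142a-5p, chr11:87756867-87756887, plus strand: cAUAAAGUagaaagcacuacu
mmu-miR-142a-3p, chr11:87756903-87756925, plus strand: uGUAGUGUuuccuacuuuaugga
The 2 arms do not share a seed. The hairpin lies between exons of Mir142hg-201 in M21, so the spliced host that was counted does not contain it, and no value for the mature microRNAs is given by these tables.

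The 32 members made up 1.15% of the lincRNA genes in the tables. By contrast, 37.0% of 21474 protein-coding genes (7939) reached 100 counts in both libraries. Of the other lincRNAs, 2314 had 0 counts in both libraries, and 6 reached 100 counts in 1 library only, 5 of them in replicate 1. Apart from the 2 rows left out, the members held 93.6% of the lincRNA counts in replicate 1 and 94.0% in replicate 2. A high share follows from the rule, which selected the members on these same counts. The members' sum was 57271 and 40163 counts, which is 0.0961% and 0.0899% of each library (0.0930% ± 0.00439, SD, n = 2). The rows left out stood far above them, Gm26917 at 11842 and 24418 TPM and Gm42418 at 9932 and 15786 TPM.

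A few members dominated. Norad, Mir142hg and Gm10076 together held 66.7% and 66.6% of the members' summed TPM, which was 2184 in replicate 1 and 1524 in replicate 2. These levels have limits given below: Norad was counted on a short model, Mir142hg has a transcript of 269 bases, and Gm10076 has a near copy. By counts Norad alone made up 35.0% and 53.0% of the members' total. Over members, the mean TPM ran from 1.23 to 499 with a median of 13.4, against a median of 22.3 for protein-coding genes past the same count limit. Of the members, 8 averaged at least 50 TPM, 11 lay from 10 to under 50, and 13 lay under 10. The median member had 579 counts, against 1812 for such a coding gene. Across the 32 genes, log2 TPM in the 2 libraries had a Pearson r of 0.93 and a Spearman rho of 0.92, where both axes come from the same cells and the genes are not replicates.

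**Figure D1:**
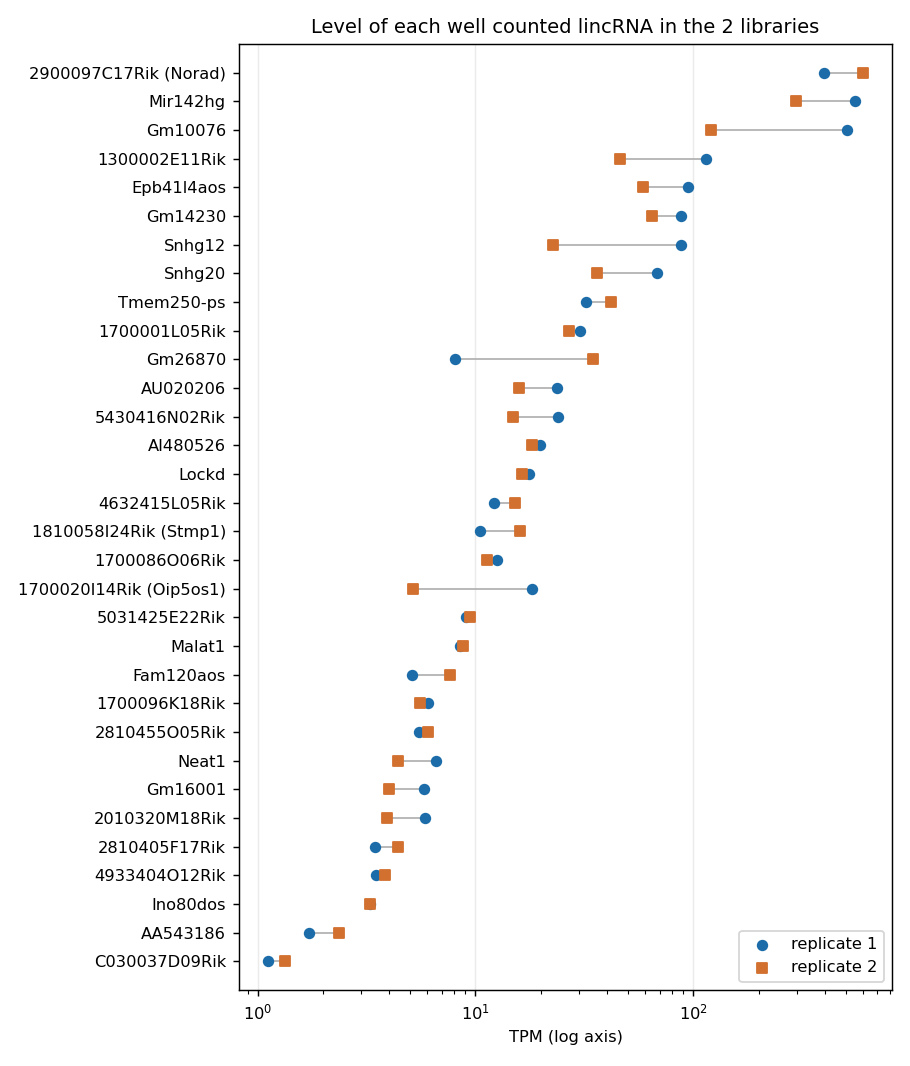
TPM (log axis) of each of the 32 members in replicate 1 (blue circles) and replicate 2 (orange squares), ordered by the mean; grey lines join the 2 libraries. Norad, Mir142hg and Gm10076 stand at the top with means of 499, 423 and 315 TPM, and the longest lines belong to Gm10076, Snhg12, Gm26870 and 1700020I14Rik.

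Norad is a cytoplasmic lincRNA that binds RNA-binding proteins and guards chromosome number in dividing cells. It is listed in M21 as 2900097C17Rik (ENSMUSG00000102869) and lies on chr2:156388065-156392979, minus strand. It had 20028 counts in replicate 1 and 21284 in replicate 2, the latter from a shallower library. Its level was 398 and 599 TPM (499 ± 142, SD, n = 2), the highest mean among the members. The deposited table assigned all of its reads to a transcript of 1149 bases, whereas the M21 model of that transcript has 4915 bases, 4.28 times as many. A level per length computed on the short model is a level of that stretch, and the value on the longer model was not computed. Pum2, which encodes a protein that Norad is known to bind, stood at 94.7 and 60.8 TPM. Khdrbs1, which encodes the partner SAM68, stood at 334 and 587 TPM.

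Mir142hg (ENSMUSG00000084796, chr11:87755577-87757270, plus strand) was second by mean level. Its 3162 and 1299 counts gave 551 and 295 TPM (423 ± 181, SD, n = 2), so it was the highest member in replicate 1 and below Norad in replicate 2. The tables give it 1 transcript, of 269 bases. The effective length, the stretch in which a fragment can start, was 113 and 125 bases, the shortest of all the members. No other listed microRNA host came near it. Mir17hg, host of the miR-17-92 cluster, had 30 and 11 counts; Mir155hg had 0 in both; Dleu2, host of miR-15a and miR-16, had 173 and 58. Mir22hg had 36 and 17 counts. Of 9 listed host genes, Mir142hg alone was a member, and it alone passed 100 counts in both libraries. The enzymes of microRNA processing were all counted. Drosha, which cuts hairpins out of host transcripts, stood at 873 and 1051 TPM, Dicer1 at 5.65 and 4.52, and Ago2 at 29.9 and 19.8.

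Among the members, 3 were on the list of snoRNA hosts, genes that carry, mostly in introns, the guide RNAs that direct chemical marks on ribosomal RNA. Epb41l4aos had 1224 and 588 counts and 94.1 and 58.7 TPM. Snhg12 had 943 and 179 counts and 88.2 and 22.7 TPM. Snhg20 had 1728 and 756 counts and 68.4 and 36.1 TPM. All 3 were higher in replicate 1. In M21, Snhg12 spans Snora16a, Snora44, Snora61 and Snord99, each with 0 counts in both libraries. Snora16a lies in an intron of the leading M21 transcript, Snhg12-204, and the other 3 lie in its exons. That M21 model has 1416 bases, whereas the counts were made on a model of 364 bases. Whether the shorter model holds these snoRNAs was not looked at. Snhg20 spans the small Cajal body RNA Gm26083, with 32 and 14 counts, and the microRNA Mir6516. The guide RNAs themselves carry no polyA tail, and their levels are not measured by such libraries.

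Other snoRNA hosts fell outside the members by type or by count. Gas5, typed as a processed transcript, had 368 and 211 counts and 15.2 and 14.8 TPM. Snhg17 had 739 and 344 counts, and Zfas1 146 and 113. Snhg6, a lincRNA, had 189 and 34 counts and so missed the limit in replicate 2. Of the 14 listed hosts found in the tables, 6 had at least 100 counts in both libraries, and 2 had 0 in both. All 8 listed snoRNA protein genes were counted well, among them fibrillarin (Fbl) at 1001 and 601 TPM and Nhp2 at 184 and 180.

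Malat1 and Neat1 are neighbours on chromosome 19 that mark nuclear bodies: Malat1 RNA gathers in splicing speckles, and Neat1 RNA is the scaffold of paraspeckles. Neither was among the highest by TPM in these polyA-selected libraries, which do not measure RNA without a tail. Malat1 stood at 8.52 and 8.76 TPM (8.64 ± 0.170, SD, n = 2), which ranked it 21 of 32 by level, and at rank 6 by count with 2516 and 924. Neat1 stood at 6.60 and 4.40 TPM (5.50 ± 1.56, SD, n = 2) from 1291 and 674 counts. The 6 listed paraspeckle protein genes all had at least 100 counts in both libraries. Sfpq stood at 553 and 1007 TPM, Nono at 32.4 and 22.6 and Pspc1 at 11.2 and 8.36.

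Lockd is a lincRNA known from erythroblasts, where the DNA element at its start acts as an enhancer of Cdkn1b, a brake on the cell cycle. It had 256 and 171 counts and 17.7 and 16.3 TPM (17.0 ± 0.990, SD, n = 2). Scaled for depth, the log2 ratio between the libraries was 0.03 with a counting interval from -0.26 to 0.31. In M21 the starts of Lockd and Cdkn1b, on the same strand of chromosome 6, lie 8691 bases apart, and Cdkn1b stood at 65.7 and 76.9 TPM (71.3 ± 7.94, SD, n = 2). The deposited model of Lockd-201 had 441 bases and the M21 model has 5662. Its end in the sequences above is therefore that of the later model.

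Oip5os1, listed in M21 as 1700020I14Rik and also known as Cyrano, is a conserved lincRNA known to drive the decay of the microRNA miR-7. It had 2232 and 657 counts and stood at 18.2 and 5.17 TPM (11.7 ± 9.21, SD, n = 2). Tug1, a lincRNA by name that M21 types as antisense, had 1820 and 2246 counts and was no member for that reason. Several lincRNAs that are well known elsewhere were close to absent. H19 had 0 counts in both libraries, Meg3 had 2 and 1, Xist had 3 and 1, Pvt1 had 6 and 3, and Trp53cor1 had 13 and 3. Of the 5 listed X-linked noncoding genes and the 6 listed imprinted ones, 0 were members. On each of these lists 1 gene passed 100 counts in both libraries and was left out by its type, antisense: Tsix, which overlaps Xist on the other strand, with 1283 and 969 counts, and Kcnq1ot1 with 305 and 132. In total, members lay on 16 chromosomes, with 6 on chromosome 5 and 5 on chromosome 2, and 0 on the X.

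Most of the other members are known by clone names and have no function that can be stated here. Gm14230 had 1705 and 906 counts and stood at 87.9 and 64.5 TPM, and 1300002E11Rik had 2791 and 799 counts and stood at 114 and 46.2 TPM. Tmem250-ps stood at 32.1 and 42.0 TPM, and 1700001L05Rik at 30.1 and 26.8. AU020206, 5430416N02Rik and AI480526 averaged 19.8, 19.4 and 18.9 TPM, and the SDs of the first 2 were 5.68 and 6.46. Levels of these 3 neighbours in the order differed by less than those SDs. At the low end, AA543186 stood at 1.73 and 2.37 TPM and C030037D09Rik at 1.12 and 1.34.

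The label lincRNA did not hold for every member in a second annotation. RefSeq on GRCm38.p6 has 27 of the 32 under the same name or a synonym at the same place, and types 23 as long noncoding RNA. It types 1810058I24Rik and Tmem250-ps as protein-coding, 4632415L05Rik as a transcribed pseudogene and Gm10076 as a pseudogene. The first of these is also known as Stmp1, which encodes a small mitochondrial peptide. Its 1056 and 575 counts gave 10.5 and 16.0 TPM. In M21, 26 members overlap no coding gene, 5 overlap a coding gene on the opposite strand and 1300002E11Rik overlaps Map3k13 on its own strand. Whether counting used strand was not given in the sources used here, so reads of overlapping genes cannot be told apart with certainty.

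For some members, near copies elsewhere in the transcriptome make the count uncertain. The members' M21 sequences were searched for matches at 95% identity or more. No match in another gene was found for 12 members, and under 10% of the transcript was matched for 19, those 12 included. In 4 members at least 50% of the leading transcript was matched. Gm10076 matched Rpl41, a ribosomal protein gene, over 383 of its 384 bases at 99.5% identity, and Rpl41 had 157044 and 49195 counts. How fragments were assigned between these near-identical sequences was not tested, and the 5877 and 1024 counts of Gm10076 are uncertain. Gm26870 was covered in full by matches in 11 other genes, the longest being 601 bases of Gm17535. In 5430416N02Rik, 73.5% was matched, with the nested gene Gm27286 as the longest match, and that gene had 0 TPM. Norad, in its M21 model of 4915 bases, shared 2537 bases at 99.2% identity with the lincRNA Gm7292. The 47 and 26 counts of Gm7292 are few beside those of Norad. Norad was counted on a model of 1149 bases, and how much of the match lies in that model was not looked at.

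The members' transcripts were shorter and simpler than those of coding genes. The median leading transcript had 2 exons and a deposited length of 1160 bases, against 7 exons and 2138 bases for the 7860 coding genes. Exon numbers and GC content here come from the M21 models, and for 9 members the leading transcript has another length in M21. Of the members, 9 have 1 exon (28.1%, against 2.48% of the coding genes), 19 have 2 or 3, and 4 have 4 or more. Malat1, Norad and Gm10076 are among those with 1 exon. The median GC content was 50.2% against 52.7%, and ranged from 36.2% to 63.1%.

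Many members start close to a coding gene. The nearest coding start lay within 1000 bases for 10 of the 32 (31.2%), against 8.71% of all 2777 lincRNAs, and the median distance was 12148 bases against 62136. Of those 2777, 2314 had 0 counts in both libraries, so the comparison is not with counted lincRNAs alone. In 7 of the 10 the coding gene is on the opposite strand and is transcribed away from the member. These pairs are Gm16001 with Ogfod2 at 33 bases, 2010320M18Rik with Pik3r2 at 102, Gm14230 with Tgif2 at 115, C030037D09Rik with Msi2 at 132, 5031425E22Rik with Kmt2e at 172, Fam120aos with Fam120a at 270 and AI480526 with Setd1b at 527. AA543186 with Man1b1 and 1700086O06Rik with Dele1 are on opposite strands with overlapping starts. The tenth, 1300002E11Rik, starts 28 bases from Map3k13 on the same strand.

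For 3 of the 7 pairs the reference tables hold the whole DNA between the annotated starts. It is shown because transcription of the pair leaves this stretch in both directions. Each is written 5′ to 3′ on the lincRNA's strand, from RefSeq on GRCm38.p6, with CG dinucleotides in capitals.
Ogfod2 start to Gm16001 start, chr5:124112264-124112297, minus strand: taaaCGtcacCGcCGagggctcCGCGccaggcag
Pik3r2 start to 2010320M18Rik start, chr8:70776713-70776815, plus strand: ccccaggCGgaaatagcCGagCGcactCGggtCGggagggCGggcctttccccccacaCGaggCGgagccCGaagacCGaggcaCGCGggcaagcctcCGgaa
Msi2 start to C030037D09Rik start, chr11:88718513-88718645, plus strand: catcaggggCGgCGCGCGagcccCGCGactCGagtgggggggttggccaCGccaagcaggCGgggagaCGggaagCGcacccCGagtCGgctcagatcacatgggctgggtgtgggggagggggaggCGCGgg
They hold 5 CG in 34 bases, 13 in 103 and 15 in 133. RefSeq promoter windows of 300 bases were found for 21 members, 23 windows in all. Their median was 23.0 CG dinucleotides and 59.3% GC, against 7.0 and 52.7% over all 32851 windows. All windows were taken without a count limit, and neither level nor GC content was matched in the comparisons with them. The GATA1 word AGATAA, on either strand, occurred in 1 of the 23 (4.35%), the downstream window of 1810058I24Rik, against 11.2% of all windows. With TGATAA added, which differs in its first letter and so never matches at the same place, 3 windows had a match (13.0%, against 18.6%). Those were windows of 1810058I24Rik, Snhg20 and Gm14230, and matches outside such windows were not looked for.

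In 8 of the 9 opposite-strand pairs the coding gene was at the higher level in both libraries. Gm16001 stood at 5.83 and 4.02 TPM beside Ogfod2 at 45.0 and 52.9. Fam120aos stood at 5.10 and 7.63 TPM beside Fam120a at 185 and 239, 36.3 and 31.3 times as high. The exception was 5031425E22Rik, at 9.09 and 9.47 TPM beside Kmt2e, a chromatin regulator, at 8.81 and 9.39. Gm14230 came close to its partner in replicate 1 only, with 87.9 TPM against 96.9 for the repressor gene Tgif2, and 64.5 against 128 in replicate 2. By scaled counts, the lincRNA and its neighbour moved to the same side between the libraries in 3 of the 9 pairs. In the same-strand pair, 1300002E11Rik at 114 and 46.2 TPM stood beside a Map3k13 at 0.0700 and 0.0900 TPM.

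**Figure D2:**
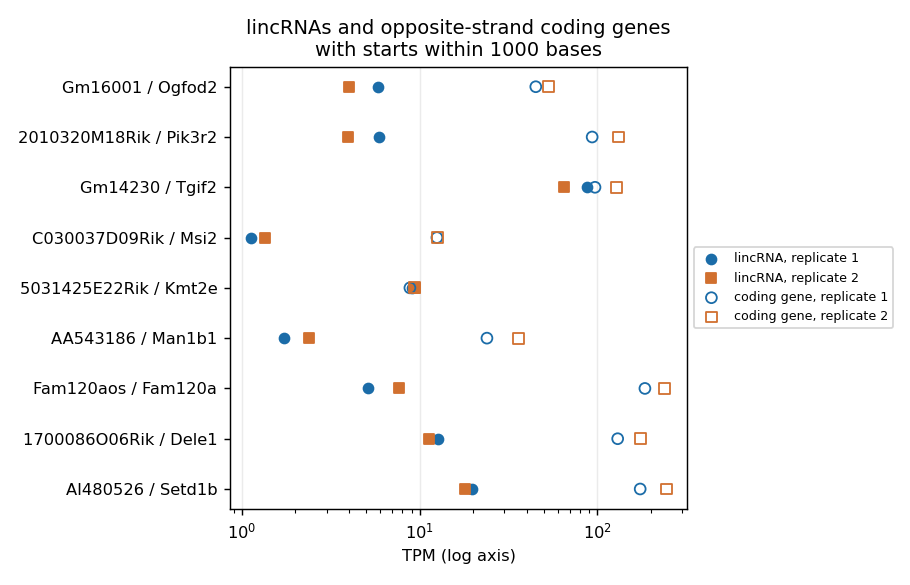
TPM (log axis) of 9 lincRNAs (filled) and the opposite-strand coding gene whose start lies within 1000 bases (open), with replicate 1 as blue circles and replicate 2 as orange squares. The open symbols lie to the right of the filled ones in every pair but 5031425E22Rik and Kmt2e, whose values are 9.09, 9.47, 8.81 and 9.39.

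Counting 1300002E11Rik, 10 members had a nearest coding gene under 1 TPM in both libraries. Norad is nearest to Epb41l1, at 0.0100 and 0 TPM. Snhg12 is nearest to Rab42, at 0.200 and 0.230 TPM. Epb41l4a, the gene that Epb41l4aos is named for, is listed at 0 TPM in both.

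The libraries could be compared with each other, gene by gene, but not as conditions. An exact two-sided binomial test set each gene's counts against the ratio of library sizes scaled by TMM, a trimmed mean over genes, using Benjamini-Hochberg adjustment over 11285 genes. A gene was called at an adjusted p under 0.05 and a difference of at least 2-fold. Such a test takes counting noise as the only error. The rule called 11.3% of all genes tested and 6.94% of the 8219 genes that had 100 counts or more in both libraries. Of the 32 members it called 5 (15.6%): 4 lower in replicate 2, where the share among the 8219 genes was 5.46%, and 1 higher, where it was 1.47%. With 32 genes, 5 calls are few, and nothing particular to lincRNAs is read from them.

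The members called lower in replicate 2 were Gm10076, Snhg12, 1300002E11Rik and 1700020I14Rik. Gm10076 went from 508 to 121 TPM, a log2 ratio of scaled counts of -1.91 with a 95% counting interval from -2.01 to -1.81. Rpl41, its near copy, had a log2 ratio of -1.06. Snhg12 had a log2 ratio of -1.78 (interval -2.02 to -1.55, adjusted p of the exact binomial test 2.36e-65). For 1300002E11Rik the log2 ratio was -1.19 (interval -1.31 to -1.08, adjusted exact p 1.04e-106), and for 1700020I14Rik it was -1.15 (interval -1.28 to -1.03, adjusted exact p 4.82e-81). The member called higher was Gm26870, with 414 and 1248 counts and 8.06 and 34.5 TPM, a log2 ratio of 2.20 (interval 2.04 to 2.37, adjusted exact p 8.62e-189). Of the 5, Gm10076 and Gm26870 are also those matched over nearly their whole length by other genes.

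When the dispersion of the pair of libraries was used in place of counting noise, in edgeR's exact test, Gm26870 alone kept a call, at an adjusted p of 0.0432. Of the 8219 genes, 29 were called that way. The adjusted p by that test was 0.146 for Gm10076, 0.233 for Snhg12, 0.814 for 1300002E11Rik and 0.858 for 1700020I14Rik. These 4 differences are thus larger than counting noise and were not told from the spread that genes in general showed between the libraries.

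**Figure D3:**
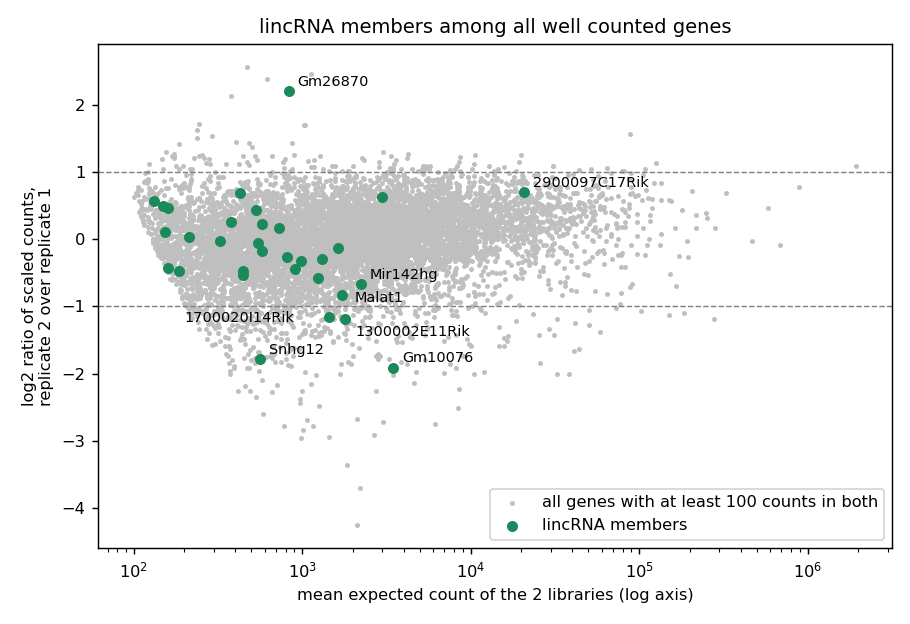
Log2 ratio of TMM-scaled counts, replicate 2 over replicate 1, against the mean expected count (log axis), for the 8219 genes that had 100 counts or more in both libraries (grey) and the 32 members (green); dashed lines mark a 2-fold difference. Gm26870 lies above the upper line and 4 members below the lower one; the empty lower left corner comes from the count limit.

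As a group the members lay slightly below 0. Their median log2 ratio of scaled counts was -0.15, with quartiles at -0.49 and 0.30, against -0.03 for all genes tested and 0.01 for coding genes past the count limit. Of the 32, 19 were below 0 and 13 above; with total counts as the scale, every log2 ratio decreased by 0.20 and 22 were below 0. Within 1.5-fold lay 22 members (68.8%), against 6134 of the 8219 genes (74.6%). The median SD of TPM was 24% of the mean over members and 17.5% over the 8219 genes. It was under 10% of the mean in 10 members, among them Ino80dos (3.28 and 3.29 TPM), Malat1, 5031425E22Rik and Lockd. It was over 50% in 5, the members called. With 2 values, an SD over 50% of the mean needs a TPM difference of more than 2-fold, so this match is no separate result. The shares of the 8219 genes past these limits were not computed. The credible intervals of TPM that the authors deposited did not overlap between the libraries for 62.5% of the members, 14 higher in replicate 1 and 6 higher in replicate 2, against 69.9% of the 8219 genes.

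**Figure D4:**
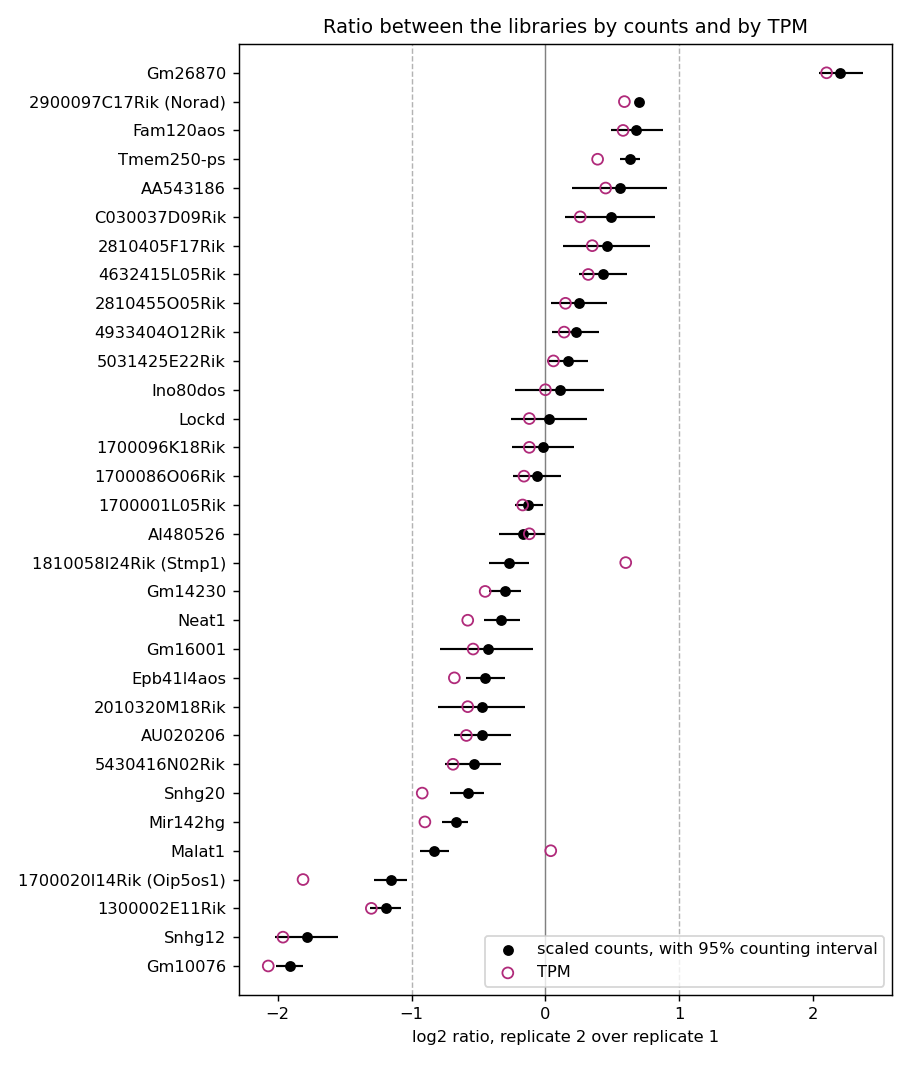
Log2 ratio, replicate 2 over replicate 1, of each member by TMM-scaled counts (black, with the 95% counting interval) and by TPM (open circles); dashed lines mark a 2-fold difference. Gm26870 stands apart at 2.20, Gm10076 is lowest at -1.91, and Malat1 and 1810058I24Rik have TPM ratios far to the right of their count ratios.

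Short members had the lower ratios. The split at 600 bases of deposited length was chosen after the values were seen. The 8 members with a leading transcript under 600 bases had a median log2 ratio of -0.63, with 7 of them below 0. Of these 8, 3 are not under 600 bases in M21: Snhg20 at 600, Snhg12 at 1416 and Lockd at 5662. The other 24 had a median of 0.05, with 12 below 0. Among coding genes the same split gave a median of -0.10 for 774 short genes and 0.02 for 7086 others. Over members the Spearman rho of length with the ratio was 0.50, and over the coding genes it was 0.12, as descriptions in which all points share the same 2 libraries. For GC content it was -0.12 and 0.23. The effective length was longer in replicate 2 for members with 1 counted transcript, 113 and 125 bases in Mir142hg and 993 and 1005 in Norad, which goes with shorter fragments there. The part of fragment size in the ratios was not tested.

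Within genes, the reads were mostly given to 1 transcript. Of the members, 10 had 1 transcript in the tables and 22 had more. In 15 of those 22 the leading transcript took at least 75% of the gene's TPM in both libraries. The leader by TPM differed between the libraries in Malat1 and 1810058I24Rik, and the leader by counts differed in 0 members.

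In Malat1 the full-length Malat1-201, of 6983 bases, took 84.2% of the TPM in replicate 1 and 39.0% in replicate 2. The 656-base Malat1-204 took 15.8% and 60.8%. By counts Malat1-201 kept 98.6% and 89.6%, since the short form gains much level from few reads: 34.2 counts in replicate 1 and 96.3 in replicate 2. The effective length of the gene thereby went from 5825 to 2983 bases. The equal gene levels of 8.52 and 8.76 TPM stand beside scaled counts with a log2 ratio of -0.83 (interval -0.94 to -0.72).

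In 1810058I24Rik, transcript 203, of 2521 bases, went from 70.4% to 20.1% of the TPM. Transcript 201, of 690 bases, went from 0 to 60.5%, from 0 and 186.2 counts. Its gene TPM was higher in replicate 2, 16.0 against 10.5, while the log2 ratio of scaled counts was -0.27. Malat1, 1810058I24Rik and Lockd were the 3 members whose direction differed between scaled counts and TPM, and in Lockd both values lay near 0.

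Neat1 makes a short polyadenylated transcript and a long form that is needed for paraspeckles. The short Neat1-202, of 3004 bases, took 93.5% and 91.6% of the gene's TPM. The long Neat1-201, of 20771 bases, took 5.75% and 8.39%, at 0.380 and 0.370 TPM. By counts the long form had 30.8% and 39.5%. The forms overlap, and the libraries were selected for polyA tails. In 1700020I14Rik the 1381-base transcript 201 led by TPM, with 82.7% and 65.9%, and the 8300-base transcript 202 led by counts, with 58.2% and 77.4%. The fall of this gene by TPM, 18.2 to 5.17, was thus steeper than by scaled counts. In Gm14230 the leader also differed between TPM and counts, with the same order in both libraries.

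**Figure D5:**
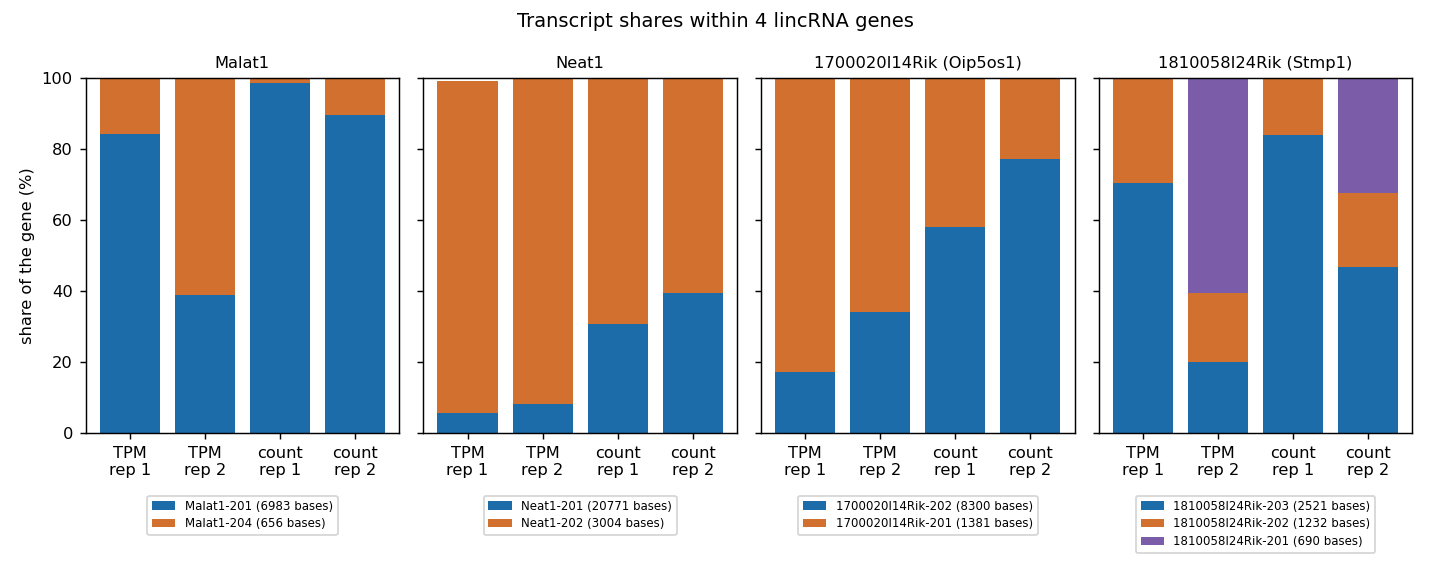
Share of each gene (%) given to its transcripts, by TPM and by expected count in replicates 1 and 2, for Malat1, Neat1, 1700020I14Rik and 1810058I24Rik, with transcripts under 1% everywhere left out and deposited lengths in the legends. The short transcripts Malat1-204 and 1810058I24Rik-201 rise to 60.8% and 60.5% of the TPM in replicate 2.

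Some members were counted on models that later grew. The leading transcript had the same length in M21 as in the deposited tables for 23 members and another length for 9. In 4 of these M21 is at least 1.5 times longer: Lockd 12.8 times, Norad 4.28 times, Snhg12 3.89 times (364 to 1416 bases) and 1700001L05Rik 3.85 times (1290 to 4969 bases). The levels of these 4 members per length hold for the shorter model.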

How the data were processed

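PolyA-selected RNA of G1E-ER4 cells was measured in 2 libraries of 1 group. Per the notes beside the files, the authors' values come from alignments to transcripts of GENCODE M4 on mm10. Which aligner and quantifier made them is not given in the sources used here. Deposited expected counts, with posterior mean counts beside them, are unnormalized estimates per gene or transcript. The deposited TPM values are divided by effective length and sum alike in both libraries, and the interval bounds of TPM, a score for this purpose, are the authors' own. Rows with no Ensembl identifier, 26345 of them, held 3.36e-06% and 0% of the counts and were left out. Of 43346 genes, 42462 matched GENCODE M21 (GRCm38, the assembly of mm10) by identifier.

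Expected counts were rounded before testing. Genes with at least 10 counts over both libraries entered an exact two-sided binomial test against TMM-scaled library sizes of 63786833 and 41763792 (edgeR 4.0.16), with Benjamini-Hochberg adjustment, and were called at an adjusted p under 0.05 and 2-fold. Log2 ratios carry a prior count of 0.5, and the 95% intervals are exact binomial ones that cover counting error only. Counts for replicate 2 over replicate 1 were also simulated, with counting noise as the only error. On these the test recovered 100 of 100 genes changed 3-fold and 100 of 100 lowered 4-fold, and called 0 of 11115 unchanged ones. Spread between libraries beyond that noise was not simulated, so these numbers give no rate of false calls in the real pair. The biological coefficient of variation of the pair, from edgeR over 10293 genes, was 0.287. Other tools were Python 3.11.15 with SciPy 1.17.1, DESeq2 1.42.0 for alternative size factors, and BLAST 2.17.0+ with a word size of 28 for copies.

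The members and gene lists were chosen with earlier results of these data known. Genes named are the 15 highest members by TPM and by count, the 6 with the largest log2 ratio, those on the role lists, 3 either side of the count limit and those whose leading transcript changed; other members were named where a count of 9 or fewer or a feature called for it. Alternatives were other count columns, scalings, filters, windows and tests. Some genes on the role lists are not reported here.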

Additional observations from a re-analysis of the deposited data

How the results depend on the processing

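No paired analysis was possible because the libraries form 1 group. The members called different numbered 5 with TMM, and the same 5 were called with DESeq2 size factors and by a 2-fold difference in TPM. Scaling by total counts called 6, Malat1 being the added gene, and edgeR's exact test with the dispersion of the pair called 1. Of the 8219 genes that had 100 counts or more in both libraries, 570 were called with TMM (6.94%). The 2-fold difference in TPM, which has no count test, was met by 798 of them. Shares over these genes were not computed for DESeq2 size factors or total counts. Total scaling lowered every log2 ratio by about 0.20, so that the members' median became -0.34 in place of -0.15, that of all genes tested -0.23 in place of -0.03, and 22 members lay below 0. The members' share of all counts was 0.0985% with Gm26917 and Gm42418 out of the total, against 0.0930%. Windows with a GATA word numbered 3 with TGATAA added, against 1. With the count limit asked of 1 library, the members numbered 33 to 37, and a limit of 200 left 24. On 1 library each, the share of counts ran from 0.0899% to 0.0961%, and the median TPM moved by less than 1 SD. Posterior mean counts or TPM, a prior count of 5, no count filter, a 5 kb distance, the last 100 bases and transcript shares by counts gave values within 1.5 times or 1 SD of those reported. Promoter windows of 500 bases either side were not run, as no genome sequence was used here. Depth limits the members near 100 counts most: for AA543186, with 135 and 130 counts, the interval of the log2 ratio ran from 0.20 to 0.91.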
